A study of Mus musculus with 12 samples.

Results

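The genes of the voltage-gated sodium channels, the voltage-gated calcium channels and the hyperpolarization-activated HCN channels were followed through ribosome-bound and whole-tissue RNA of mouse hypothalamus and midbrain. Members were taken by gene symbol, and 40 of the 32531 gene rows of the count tables are described: 8 pore-forming sodium genes, 3 sodium beta genes, 10 pore-forming calcium genes, 4 calcium alpha2delta genes, 4 calcium beta genes, 8 gamma genes and 3 HCN genes. The row Scn2a1, the older symbol of Scn2a, was not matched by the symbol rule and was kept with the partner genes described at the end.

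The mice were adults of the Slc17a6-TRAP line JX883, in which an EGFP-tagged copy of the ribosomal protein Rpl10a is made under the regulatory sequence of Slc17a6, the gene of the vesicular glutamate transporter VGLUT2. In translating ribosome affinity purification (TRAP), polysomes carrying the tag are pulled down with antibodies to EGFP, so the RNA recovered is that bound to ribosomes of the cells that express the transgene. The 4 groups were hypothalamus IP (immunopurified, ribosome-bound RNA), hypothalamus input (total RNA of the tissue), midbrain IP and midbrain input, with 3 libraries in each and 12 in all. Mice of every group, the inputs included, carried the transgene, and no treatment was given. The labels state neither sex, nor age beyond adult, nor whether tissue of several animals was pooled. They do not say that replicates were separate animals, so p-values measure the spread between these libraries, which may be technical.

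In a sodium or high-voltage calcium channel a single large alpha subunit forms the pore and senses voltage. Auxiliary subunits control how many channels reach the membrane and how they gate. These are beta proteins with 1 membrane span for sodium channels, and cytoplasmic beta with extracellular alpha2delta proteins for calcium channels. Low-voltage (T-type) calcium channels work largely without them. Of the gamma genes, several encode proteins that mainly escort AMPA-type glutamate receptors. HCN channels open on hyperpolarization, bind cyclic nucleotides and carry a current that paces neuronal firing.

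The tables held raw read counts with totals of 41909019 to 55148109 over genes per library, so that 3 counts, the limit that a count of 0 allows, came to 0.0544 to 0.0716 CPM (counts scaled to library size). Slc17a6 itself was 6.07-fold higher in hypothalamus IP than in input (edgeR quasi-likelihood test, Benjamini-Hochberg adjusted p = 0.00184) and 3.53-fold higher in midbrain IP than in input (adjusted p = 0.0116). Astrocyte markers were lower in IP for 10 of 10 genes in both regions, oligodendrocyte markers for 10 of 10 in both, and markers of GABAergic neurons for 10 of 13 in hypothalamus and 11 of 13 in midbrain. General neuron markers were higher for 7 of 10 and lower for 1 in hypothalamus, and higher for 3 of 10 and lower for 1 in midbrain. Counts of Rn45s, the ribosomal RNA precursor, made up 12.3% and 12.5% of the IP libraries numbered 1, against 5.21 to 6.85% of the remaining IPs. Hypothalamus input replicate 2 held 1631 CPM of pituitary markers in sum, against 34.3 to 116 CPM in the other hypothalamus inputs. All IP libraries carried 1 sequencing index and all inputs another, so fraction and index cannot be told apart. Libraries of 1 number from 1 region were sequenced on a common lane, and the other region on another lane. In such bulk samples, fewer cells of a type and less RNA per cell cannot be told apart.

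Levels were compared between genes only as CPM (scaled by the trimmed mean of M values, TMM) per kilobase of annotated exons. Summed by this measure over the genes described, the auxiliary beta genes stood above the pores, with Scn2a1 left out. Single beta genes did not all do so. Scn4b was far below the leading pores in the hypothalamus. In midbrain input Cacnb1, Cacnb2 and Cacnb3, at 7.25, 14.3 and 14.5 CPM per kb, had means below that of Scn1a. Cacnb1 at 13.1 and Cacnb2 at 25 were below it in midbrain IP too. Scn2b and Cacnb4 had means above those of Scn1a and Cacna1b in all 4 groups. The 4 alpha2delta genes, also auxiliary, summed to 23.4 to 25.5 CPM per kb across the 4 groups. The 7 beta genes summed to 211 ± 19.4 CPM per kb in hypothalamus IP and 141 ± 16.2 CPM per kb in its input, and to 273 ± 23 and 165 ± 9.15 CPM per kb in midbrain IP and input (SD, n = 3 libraries each). The 21 pore-forming sodium, calcium and HCN genes together summed to 76.8 ± 45.6 CPM per kb in hypothalamus IP and 89.6 ± 24.1 in its input, and to 122 ± 41.3 and 112 ± 23.6 CPM per kb in midbrain IP and input. Reads per annotated base are a rough guide, because the expressed isoforms and their untranslated ends are not known here.

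With Scn2a1 left out, Scn1a, which encodes the Nav1.1 pore, was the most abundant per kilobase of the pore-forming sodium genes described, in all 4 groups. Scn8a (Nav1.6, the main pore of the mature axon initial segment) and Scn3a (Nav1.3, best known from the immature brain) followed. Scn1a measured 13.6 ± 8.16 CPM per kb in hypothalamus IP, 12.7 ± 6.37 in hypothalamus input, 29.5 ± 9.01 in midbrain IP and 30.3 ± 15.1 in midbrain input. Scn2a1, the Nav1.2 pore, measured 15.7 ± 9.81, 15.5 ± 10, 19.2 ± 7.41 and 12.4 ± 5.3 CPM per kb in the same groups, above the mean of Scn1a in both hypothalamus groups but within its spread. Among pore-forming calcium genes Cacna1b, the N-type pore that feeds transmitter release, led in every group, with 11.3 ± 7.46, 15.7 ± 2.9, 12.9 ± 5.93 and 10.3 ± 0.311 CPM per kb in the same order of groups. The orders within each of these families lay within the spread of the libraries for several neighbours, Scn1a and Scn8a in the hypothalamus among them.

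Scn2b led the sodium beta genes described here in all 4 groups. It measured 57.1 ± 18.7 CPM per kb in hypothalamus IP, 37.8 ± 7.29 in hypothalamus input, 90.3 ± 17.6 in midbrain IP and 47.3 ± 1.95 in midbrain input. Among calcium beta and alpha2delta genes Cacnb3 was highest in hypothalamus IP, at 46.6 ± 4.14 CPM per kb, close to Cacnb4 at 43.4 ± 12. Cacnb4 was highest in the other 3 groups, at 34.9 ± 3.52, 66.3 ± 14.9 and 52.4 ± 4.63 CPM per kb in hypothalamus input, midbrain IP and midbrain input. Per kilobase of the longest transcript instead of all exons, hypothalamus IP averaged 68.3 CPM for Cacnb3, 61.5 for Cacnb2 and 47.3 for Cacnb4. Cacng7 led the gamma genes in all 4 groups with 37.8 ± 5.74, 47.1 ± 13.8, 60.3 ± 3.66 and 75 ± 20.4 CPM per kb in hypothalamus IP and input and midbrain IP and input. Of the HCN genes, Hcn2 measured 4 ± 1.13 CPM per kb in hypothalamus IP, 3.4 ± 1.05 in hypothalamus input, 7.69 ± 1.34 in midbrain IP and 7.83 ± 0.826 in midbrain input, and Hcn3 lay within the spread of Hcn2 in both hypothalamus groups at 4.75 ± 3.4 CPM per kb in IP and 3.21 ± 1.57 in input.

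At the low end, Scn4a and Cacng6, Cacng1 and Scn10a did not reach the count needed for the test. Scn4a, the skeletal muscle sodium pore, had 6 counts in 4 libraries, and Cacng6 had 1 count in 1 library. Cacng1, the gamma subunit of muscle, had 98 counts in 8 libraries, 48 of them in midbrain input replicate 2. Scn10a, the Nav1.8 pore of sensory neurons, had 38 of its 49 counts in hypothalamus IP replicate 1 and none in either midbrain group. Cacna1s, the pore of skeletal muscle, passed the filter at a mean of 0.762 to 1.06 CPM, and Scn11a (Nav1.9, a pore of sensory neurons) at 0.0919 to 0.795 CPM.

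**Figure D1:**
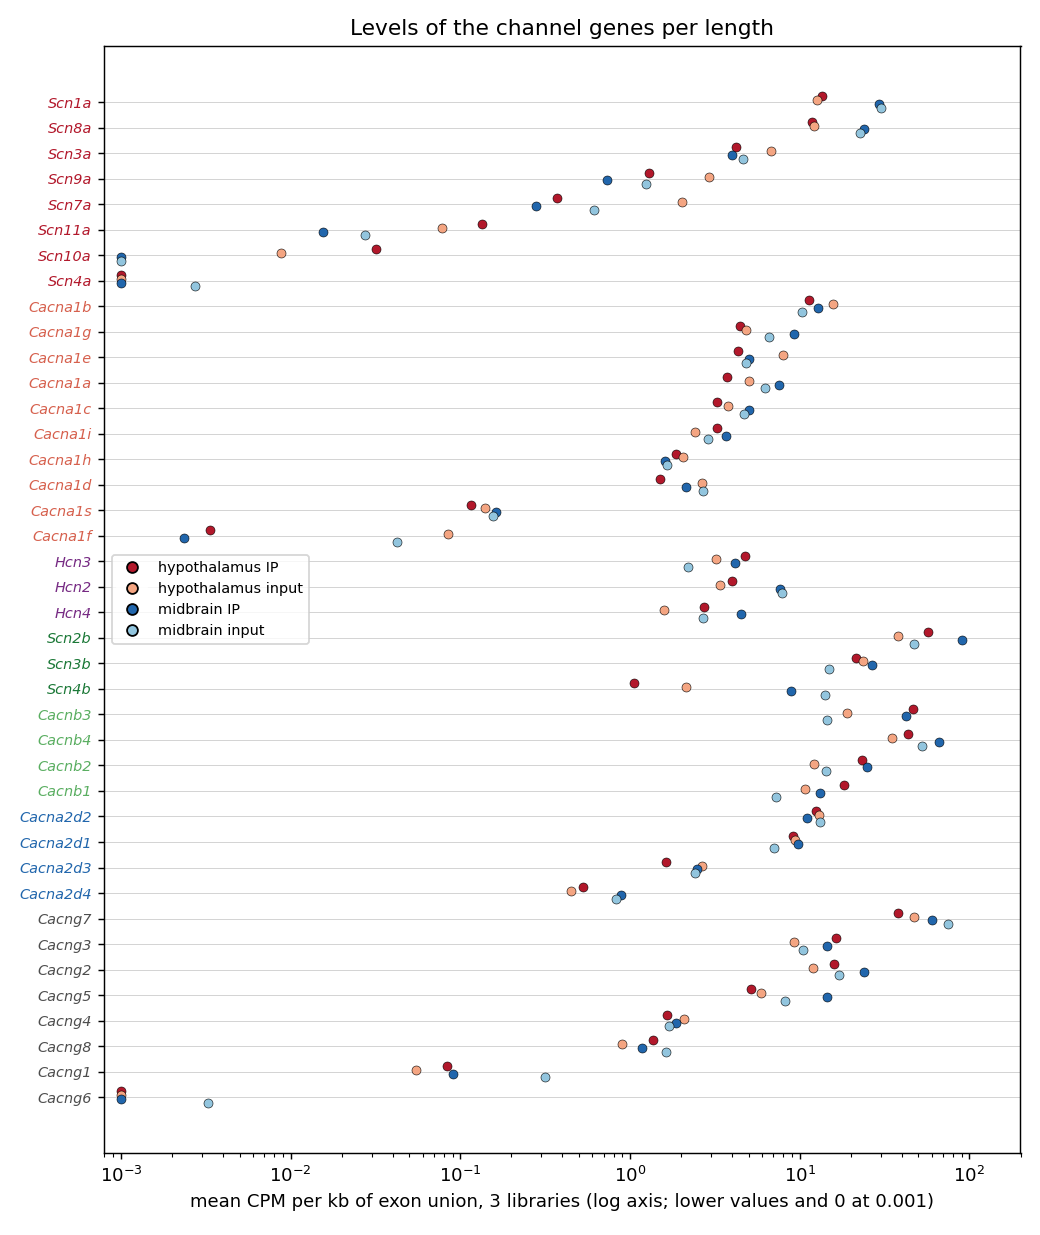
Mean level of each of the 40 channel genes over 3 libraries per group, in CPM per kb of exons on a log axis, with gene names coloured by family (pore-forming sodium and calcium in reds, HCN purple, beta greens, alpha2delta blue, gamma grey). Scn2b, Cacnb4 and Cacng7 lie to the right of every pore in each group. The other beta genes, Cacng2 and Cacng3 lie to the left of Scn1a in midbrain input. Scn4b shows the widest gap between the hypothalamus and midbrain points among genes above 0.1 CPM per kb in every group.

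The comparison of IP with input asks which channel transcripts were more, and which less, represented on tagged ribosomes than in the whole tissue. Of 36 channel genes tested, 4 were higher and 3 lower in hypothalamus IP than in input (edgeR, adjusted p under 0.05). Of all genes tested, 14.2% were higher and 19.6% lower. In the midbrain 6 channel genes were higher and 0 lower, beside 14% higher and 19.9% lower of all genes. The median log2 fold change was -0.09 over the channel genes in the hypothalamus (-0.08 over all genes) and 0.10 in the midbrain (-0.05 over all genes). So 11.1% of channel genes were higher in hypothalamus IP and 16.7% in midbrain IP, near the share of all genes. Of 7 beta genes, 3 were higher in hypothalamus IP and 5 in midbrain IP, with median log2 fold changes of 0.59 and 0.84. Of 19 pore-forming genes tested, 0 were higher and 3 lower in hypothalamus IP, and 0 were higher or lower in midbrain IP, with medians of -0.21 and 0.06.

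The replicate numbers pair the hypothalamus libraries, and with the number as a block the hypothalamus counts were 7 higher and 8 lower, beside 19.5% and 23.8% of all genes. That fit called 4 of 7 beta genes higher and 1 lower, and 1 of 19 pore-forming genes higher and 6 lower. In the midbrain, where the number was not taken to pair libraries, the same block gave 10 higher and 2 lower. The shares of all genes there were 20.3% and 23.6%. The libraries numbered 1 stood apart for the pores: 17 of 19 pore-forming genes were highest in replicate 1 among hypothalamus IPs (37.6% of all genes tested), 15 of 19 among hypothalamus inputs (35.3%), 17 of 19 among midbrain IPs (40%) and 9 of 19 among midbrain inputs (37.6%). With number 1 left out of all groups, hypothalamus IP had 7 channel genes higher and 9 lower (14.3% and 16.6% of all genes) and midbrain IP had 8 higher and 3 lower (14.2% and 15.8%). The 9 lower genes in the hypothalamus then included 8 of the 19 pore-forming genes tested.

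**Figure D2:**
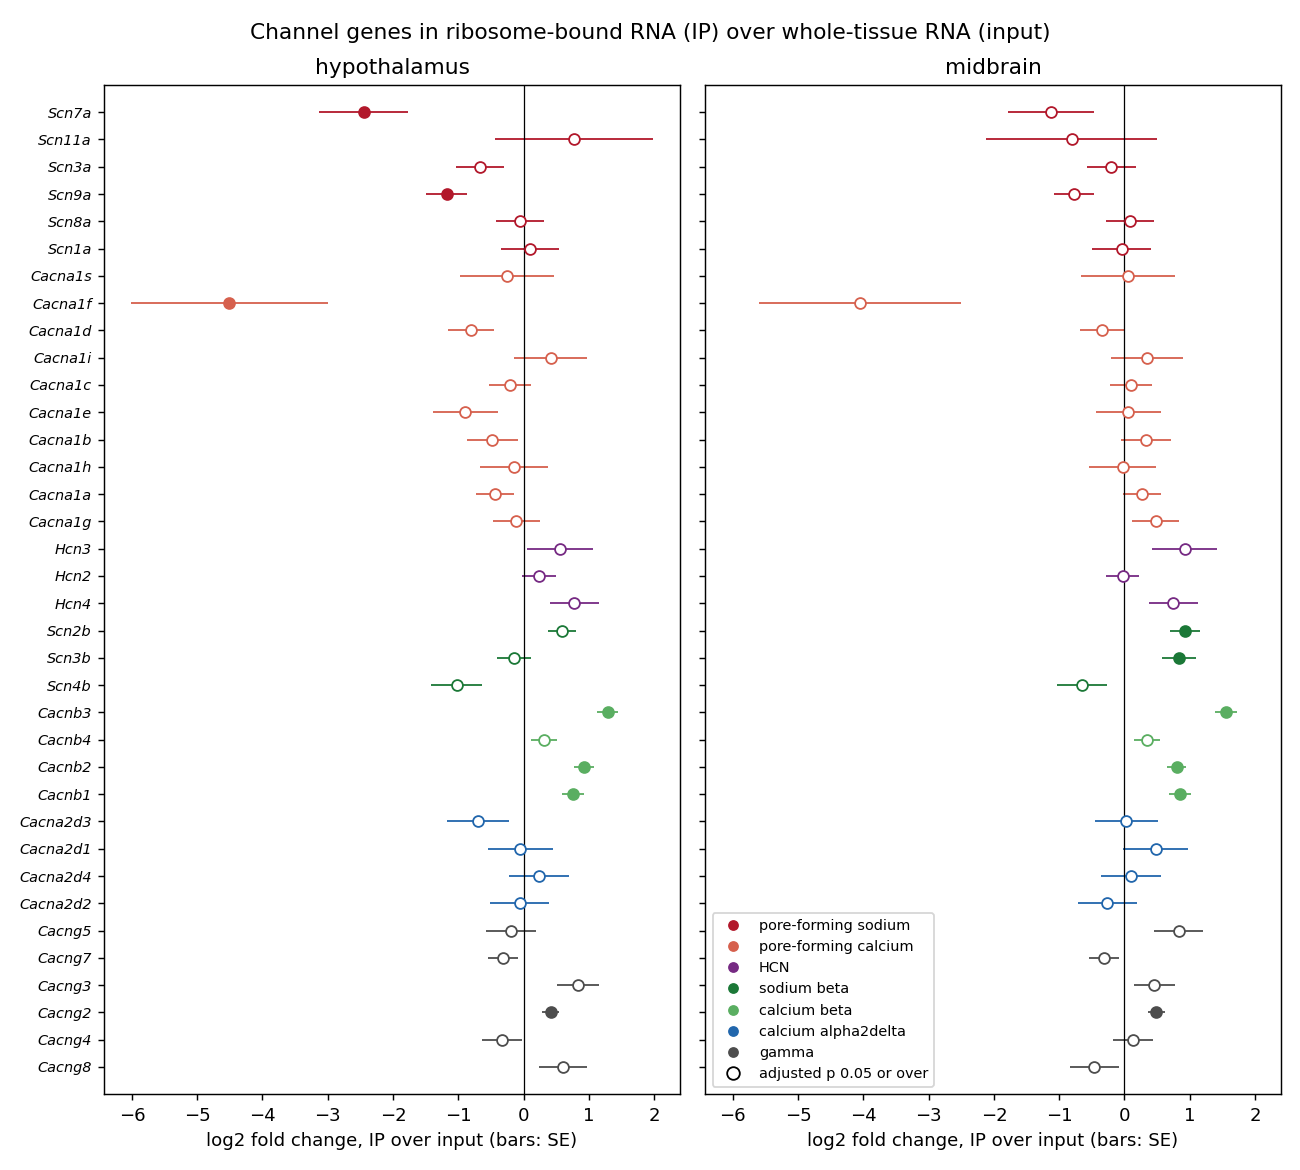
Log2 fold change of IP over input for the 36 channel genes tested, in hypothalamus (left) and midbrain (right), with the standard error as bars, colours for families and filled points for genes with adjusted p under 0.05. Filled points to the right of 0 are beta genes and Cacng2, and those to the left are Scn7a, Scn9a and Cacna1f in the hypothalamus.

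Among the pores, Scn7a encodes Nax, an atypical sodium channel that responds to extracellular sodium and in the brain is best known from glia and neurons of the sensory circumventricular organs. It measured 5.08, 1.43 and 1.70 CPM in the 3 hypothalamus IPs, against 20.1, 17.9 and 6.75 CPM in the inputs. Every IP library was below every input library. The log2 fold change was -2.45 (SE 0.68), 5.45-fold lower in IP, with an adjusted p of 0.0158 by edgeR, 0.0595 without hypothalamus IP replicate 2 and 0.0569 without replicate 3. In the midbrain Scn7a measured 3.63, 1.88 and 0.635 CPM in IP and 7.01, 3.59 and 2.84 CPM in input, which overlapped, and did not pass (adjusted p = 0.214). The replicate block called it lower in midbrain IP, although the number was not taken to pair the midbrain libraries. Astrocyte markers summed to 302 to 409 CPM in hypothalamus IP and 1358 to 2545 CPM in its input, with none of the 10 at 0. Their part in the Scn7a result was not tested.

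Scn9a, the Nav1.7 pore first known from sensory neurons, measured 22.3, 12.9 and 14.4 CPM in hypothalamus IP against 56.1, 35.1 and 20.7 CPM in input. IP replicate 1 overlapped input replicate 3. It was 2.26-fold lower in IP (log2 fold change -1.18, SE 0.31, edgeR adjusted p = 0.0126, 0.0526 without hypothalamus IP replicate 2 and 0.0673 without hypothalamus input replicate 1). In the midbrain the 3 IPs at 9.58, 8.79 and 9.84 CPM lay below the inputs at 17.6, 14.7 and 15.7 CPM, but the adjusted p was 0.0781. The replicate block called Scn9a lower in midbrain IP too. Exons of Scn9a overlap those of Gm13629 on the other strand, and the strand setting of the counts is not known, so its counts are uncertain. Leaving out hypothalamus input replicate 2, the library with pituitary markers, gave adjusted p = 0.0469 for Scn7a and 0.0289 for Scn9a.

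The third pore called lower was Cacna1f, the Cav1.4 channel of photoreceptor terminals, which was barely detected. It had 0, 5 and 0 counts in hypothalamus IP against 40, 43 and 34 in input. Its adjusted p was 0.0359 by edgeR, and exceeded 0.05 without any 1 of hypothalamus IP replicates 1 and 3, the 3 hypothalamus inputs or midbrain input replicate 1, with values of 0.0504 to 0.097. In the midbrain Cacna1f had 3, 0 and 0 counts in IP against 8, 5 and 38 in input, without overlap. It did not pass there (log2 -4.05, edgeR adjusted p = 0.061), but did without the libraries numbered 1 (adjusted p = 0.0465).

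The pores that dominate by level did not pass in either region. Scn1a measured 255, 84.4 and 116 CPM in hypothalamus IP against 224, 96.5 and 105 CPM in input, and 445, 281 and 262 CPM in midbrain IP against 533, 242 and 240 CPM in input. Cacna1b measured 196, 56.5 and 83.5 CPM in hypothalamus IP against 189, 148 and 133 CPM in input, and 197, 95.7 and 93.6 CPM in midbrain IP against 104, 98.9 and 105 CPM in input. Replicate 1 was the highest library of every group except midbrain input for Cacna1b, and IP overlapped input in both regions. For Cacna1b the hypothalamus difference turned into a call without the libraries numbered 1 (adjusted p = 0.00211, lower in IP).

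The replicate block called 3 further pores lower in hypothalamus IP. They were Cacna1d, the L-type Cav1.3 pore that supports pacemaking (log2 fold change -0.85, edgeR adjusted p = 0.00643 in the block), Cacna1e, the R-type pore (-1.08, adjusted p = 0.00384), and Scn3a (-0.76, adjusted p = 0.005). Their adjusted p without the block were 0.0924, 0.199 and 0.184. Cacna1d measured 27.4, 12.9 and 17.0 CPM in IP against 41.3, 27.4 and 31.6 CPM in input, and its exons overlap those of Chdh on the other strand. Without the libraries numbered 1 Cacna1d was called lower in midbrain IP too (log2 -0.76, edgeR adjusted p = 0.0364). Of the other 13 pore-forming genes tested, HCN genes included, none was called lower in the hypothalamus by either fit. The 3 T-type pores Cacna1g, Cacna1h and Cacna1i, which open near rest and drive bursts, had log2 fold changes between -0.14 and 0.42 in the hypothalamus and between -0.03 and 0.48 in the midbrain, and none passed. Cacna1h shares exonic bases with Tpsg1 on the other strand, so its counts are uncertain.

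The calcium channel beta genes were the most regular group. Beta subunits bind the cytoplasmic loop of the pore, carry it to the membrane and shift its gating. Cacnb3 (chromosome 15, 98630840 to 98644529, plus strand of mm10) measured 200, 193 and 168 CPM in hypothalamus IP against 77.4, 74.3 and 77.3 CPM in input. In the midbrain it measured 213, 145 and 152 CPM in IP against 49.8, 59.2 and 65.0 CPM in input. The lowest IP library lay well above the highest input library in both regions. The change was 2.45-fold in the hypothalamus (log2 1.29, SE 0.16, edgeR adjusted p = 0.000142) and 2.93-fold in the midbrain (log2 1.55, SE 0.17, adjusted p = 4.66e-05).

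Because Cacnb3 showed the smallest adjusted p of the family in both regions, the stretches from 250 bases before to 50 bases after its annotated starts are shown, from RefSeq (GRCm38.p6, the assembly of mm10), plus strand. The first covers chr15:98632078-98632377 and the second chr15:98634517-98634816. Capitals mark every match to GGGCGG, a GC box, on either strand (CCGCCC on the printed strand is the reverse complement).
Cacnb3 upstream start: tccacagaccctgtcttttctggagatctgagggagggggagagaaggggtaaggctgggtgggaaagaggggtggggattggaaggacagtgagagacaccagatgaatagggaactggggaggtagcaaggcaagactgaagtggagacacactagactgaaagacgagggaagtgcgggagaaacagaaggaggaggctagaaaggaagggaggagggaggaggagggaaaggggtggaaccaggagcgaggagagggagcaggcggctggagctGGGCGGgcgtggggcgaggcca
Cacnb3 downstream start: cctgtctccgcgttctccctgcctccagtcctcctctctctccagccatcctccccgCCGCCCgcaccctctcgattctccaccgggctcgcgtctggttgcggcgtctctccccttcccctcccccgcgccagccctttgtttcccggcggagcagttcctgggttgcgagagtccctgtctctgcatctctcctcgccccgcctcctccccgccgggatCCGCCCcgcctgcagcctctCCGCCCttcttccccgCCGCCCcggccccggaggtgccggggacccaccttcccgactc
The upstream window held 1 GC box and 59.7% G and C, and the downstream window held 4 and 72%. Among 32851 windows of all genes, 35.7% held a GC box, as did 43.9% of the 41 windows that matched 31 of the 40 channel genes. No window of Cacnb3 held TATAAA on either strand, which 13.6% of all windows and 2.44% of channel gene windows did.

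Cacnb2, the beta subunit also used by the heart's L-type channel, measured 280, 297 and 351 CPM in hypothalamus IP against 143, 169 and 174 CPM in input. In the midbrain it measured 299, 306 and 386 CPM in IP against 185, 170 and 214 CPM in input. IP and input did not overlap in either region. It was 1.91-fold higher in hypothalamus IP (log2 0.93, SE 0.15, edgeR adjusted p = 0.000667) and 1.74-fold higher in midbrain IP (log2 0.80, SE 0.15, adjusted p = 0.00175).

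Cacnb1, the beta subunit of the skeletal muscle channel that is also made in brain, measured 74.1, 90.8 and 83.5 CPM in hypothalamus IP against 43.2, 47.2 and 56.3 CPM in input. In the midbrain it measured 53.6, 63.3 and 60.5 CPM in IP against 25.5, 36.7 and 36.4 CPM in input. The groups again stayed apart, by 1.69-fold in the hypothalamus (log2 0.76, SE 0.17, edgeR adjusted p = 0.00548) and 1.80-fold in the midbrain (log2 0.85, SE 0.17, adjusted p = 0.00305). Cacnb4, whose loss causes ataxia and seizures in the lethargic mouse, was the exception in the family. It measured 288, 377 and 501 CPM in hypothalamus IP against 301, 289 and 349 CPM in input, and 448, 623 and 712 CPM in midbrain IP against 510, 427 and 471 CPM in input. Here replicate 1 was the lowest IP in each region, and IP overlapped input in both (adjusted p = 0.263 and 0.223). Without the libraries numbered 1, Cacnb4 was called higher in hypothalamus IP (log2 0.46, edgeR adjusted p = 0.0425) and in midbrain IP (log2 0.57, adjusted p = 0.0186).

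**Figure D3:**
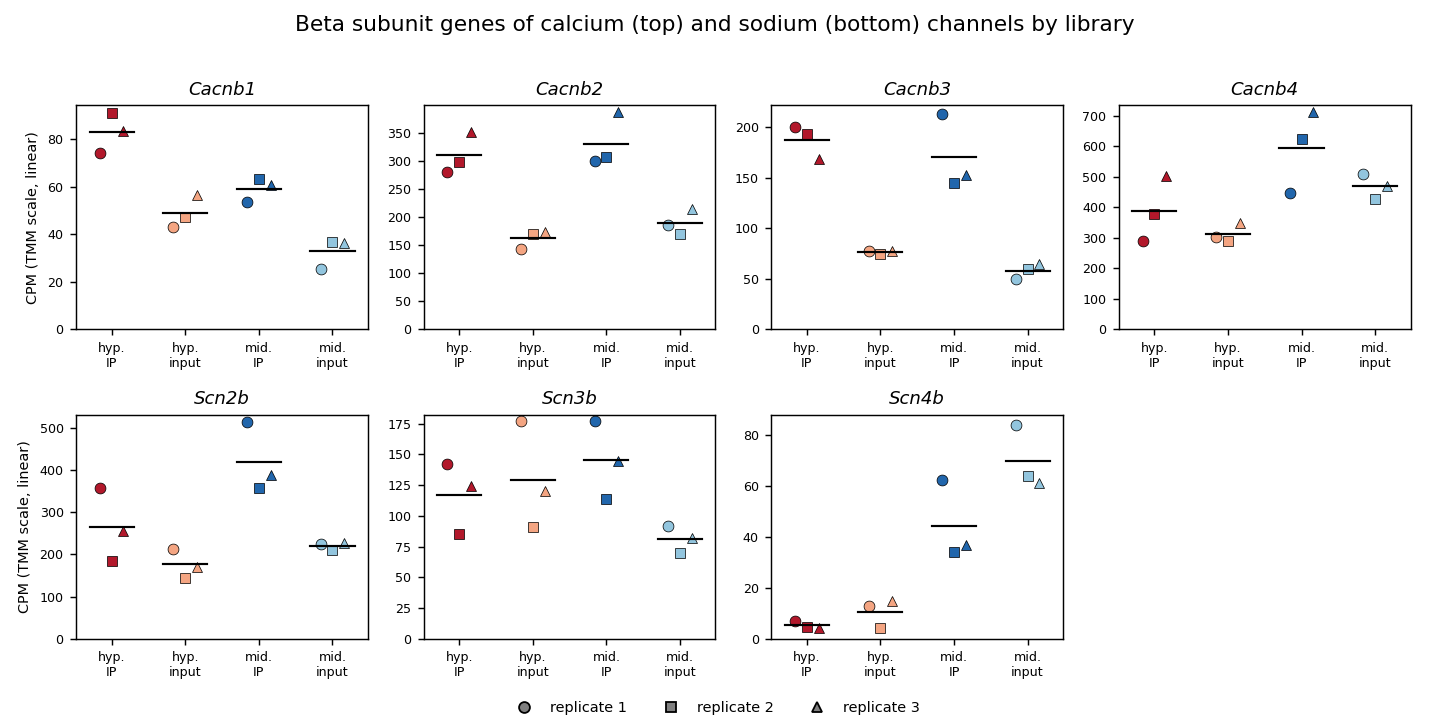
Level of the 4 calcium channel beta genes (top) and 3 sodium channel beta genes (bottom) in each of the 12 libraries, in CPM on a linear axis from 0, with bars at group means and marker shapes for replicate numbers. Cacnb1, Cacnb2 and Cacnb3 show IP points above input points in both regions, Scn2b and Scn3b in the midbrain, and Scn4b is low throughout the hypothalamus.

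Sodium channel beta proteins are small immunoglobulin-fold membrane proteins that tune gating of the pore and also act in cell adhesion. Scn2b, a beta subunit joined to the pore by a disulfide bond, measured 513, 358 and 389 CPM in midbrain IP against 225, 210 and 226 CPM in input, with no overlap. This was 1.91-fold (log2 0.93, SE 0.23, edgeR adjusted p = 0.00757). In the hypothalamus it measured 358, 185 and 255 CPM in IP against 212, 145 and 171 CPM in input, where the groups overlapped. The adjusted p there was 0.0591, and 0.00361 with the replicate block (log2 0.57).

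Scn3b, which is bound without a disulfide bond, was called higher in midbrain IP alone. It measured 177, 114 and 145 CPM in midbrain IP against 91.4, 70.0 and 81.6 CPM in input, and 142, 85.6 and 124 CPM in hypothalamus IP against 177, 91.0 and 120 CPM in input. The midbrain groups did not overlap and the hypothalamus groups did. The midbrain change was 1.79-fold (log2 0.84, SE 0.26, edgeR adjusted p = 0.0239). It missed the threshold without midbrain IP replicate 1 (adjusted p = 0.087), midbrain IP replicate 3 (0.0515), midbrain input replicate 2 (0.0852) or midbrain input replicate 3 (0.0628).

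A further sodium beta gene, Scn4b, is known for resurgent sodium current in fast-firing neurons. It measured 6.79, 4.59 and 4.35 CPM in hypothalamus IP against 12.9, 4.31 and 14.7 CPM in input, with input replicate 2 below all 3 IPs. It was lower in IP in the replicate block of the hypothalamus (log2 -0.96, edgeR adjusted p = 0.0168), while the fit without block gave 0.0631 there and 0.215 in the midbrain. Scn4b lies 8.32 kb downstream of Scn2b on the plus strand of chromosome 9, and the neighbours had different patterns. Scn2b (45117782 to 45130070 in mm10) was abundant in all 4 groups, whereas Scn4b (45138395 to 45154152) was scarce in the hypothalamus. Their RefSeq windows, chr9:45117626-45117925 and chr9:45138374-45138673 of GRCm38.p6 on the plus strand, are shown for that contrast, with the same motifs searched and none found.
Scn2b: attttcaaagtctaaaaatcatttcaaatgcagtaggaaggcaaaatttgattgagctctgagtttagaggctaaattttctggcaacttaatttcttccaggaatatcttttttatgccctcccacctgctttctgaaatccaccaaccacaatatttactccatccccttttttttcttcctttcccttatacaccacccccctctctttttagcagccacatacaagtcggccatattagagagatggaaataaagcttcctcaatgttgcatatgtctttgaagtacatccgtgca
Scn4b: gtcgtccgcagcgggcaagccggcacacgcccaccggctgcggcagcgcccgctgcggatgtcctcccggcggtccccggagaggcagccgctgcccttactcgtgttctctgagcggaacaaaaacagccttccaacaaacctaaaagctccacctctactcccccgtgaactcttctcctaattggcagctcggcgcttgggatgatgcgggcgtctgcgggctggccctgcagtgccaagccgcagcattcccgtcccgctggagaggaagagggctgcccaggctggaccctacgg
The Scn2b window held 38.3% G and C with 2 CG dinucleotides, and the Scn4b window held 66.3% with 26, beside a median of 61% G and C over the channel gene windows and 52.7% over all windows. Neither held GGGCGG or TATAAA on either strand. The part of these windows in the levels of Scn2b and Scn4b was not tested.

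None of the 4 alpha2delta genes, whose products raise the number of calcium channels at the membrane and bind gabapentin in the case of Cacna2d1 and Cacna2d2, was called in either region. Their log2 fold changes lay between -0.70 and 0.24 in the hypothalamus and between -0.26 and 0.48 in the midbrain. Replicate 1 was far above the others for Cacna2d1 and Cacna2d2, with 203 and 179 CPM in hypothalamus IP against 66.3 and 54.1 CPM in replicate 2. With the replicate block Cacna2d3 was lower in hypothalamus IP (log2 -0.78, edgeR adjusted p = 0.0187).

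Of the 6 gamma genes tested, Cacng2 was called in both regions. Its product, stargazin, carries AMPA receptors to synapses and was found through the stargazer mouse. Cacng2 measured 83.4, 84.8 and 94.7 CPM in hypothalamus IP against 66.6, 62.3 and 67.1 CPM in input. In the midbrain it measured 136, 111 and 149 CPM in IP against 98.2, 91.8 and 91.0 CPM in input. IP and input did not overlap in either region, but the change was small, 1.34-fold in the hypothalamus (log2 0.42, SE 0.13, edgeR adjusted p = 0.0275) and 1.41-fold in the midbrain (log2 0.49, SE 0.13, adjusted p = 0.0133). Its call missed the threshold when libraries were scaled by size alone (adjusted p = 0.209 and 0.0544). The hypothalamus call was also lost without any 1 of hypothalamus IP replicates 2 and 3 or the 3 hypothalamus inputs (0.0539 to 0.0951), and the midbrain call without midbrain IP replicate 3 (0.0596).

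Cacng7, the most abundant gamma gene and also an AMPA receptor escort, measured 108, 87.2 and 81.4 CPM in hypothalamus IP against 82.4, 113 and 150 CPM in input, and 157, 146 and 139 CPM in midbrain IP against 129, 192 and 228 CPM in input. In both inputs replicate 1 was lowest and in both IPs it was highest, and the groups overlapped. Without the libraries numbered 1, Cacng7 was called lower in IP, at log2 -0.64 in the hypothalamus (edgeR adjusted p = 0.011) and -0.56 in the midbrain (adjusted p = 0.0209). Cacng3, a close relative of Cacng2, was higher in hypothalamus IP in the replicate block (log2 0.76, adjusted p = 0.028), and 1 library, IP replicate 3 at 75.6 CPM, stood above the other IPs at 29.3 and 31.5 CPM. Cacng4, Cacng5 and Cacng8 were not called without the block, with log2 fold changes between -0.33 and 0.61 in the hypothalamus and between -0.46 and 0.83 in the midbrain.

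Hcn2, Hcn3 and Hcn4 were not called in either region without the block, with log2 fold changes between 0.23 and 0.78 in the hypothalamus and between -0.03 and 0.92 in the midbrain. Hcn4, the slow and strongly cyclic AMP-dependent form of the cardiac pacemaker, measured 23.9, 12.7 and 13.5 CPM in hypothalamus IP against 12.8, 4.71 and 11.7 CPM in input. Each hypothalamus IP was above the input of the same number, although the groups overlapped. With the block Hcn4 was higher in hypothalamus IP (log2 0.85, edgeR adjusted p = 0.0172). In the midbrain it measured 33.0, 17.2 and 32.6 CPM in IP against 15.4, 14.6 and 19.2 CPM in input, which overlapped at IP replicate 2. There too each IP was above the input of the same number. The block called Hcn3 and Hcn4 higher in midbrain IP. Hcn3 measured 36.0, 10.7 and 12.5 CPM in hypothalamus IP against 20.5, 7.75 and 11.8 CPM in input, with replicate 1 highest in both groups. It shares exonic bases with Pklr on the other strand, so its counts are uncertain.

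Across the 36 tested genes, log2 fold change ran against transcript length. Spearman's rho with the longest annotated transcript was -0.41 in the hypothalamus and -0.24 in the midbrain, and over 15706 genes with a length it was -0.21 and -0.17. Without the libraries numbered 1 the channel gene values were -0.56 and -0.23 over 37 genes. These are descriptions across genes that share libraries and are not independent. The longest transcript ran from 2734 to 8225 bases in the 7 beta genes and from 3195 to 14921 bases in the 21 pore-forming genes, which overlapped. The longest coding sequence ran from 645 to 2031 bases and from 2337 to 7143 bases, which did not. The 8 gamma genes had longest coding sequences of 669 to 1269 bases. Their median log2 fold changes were 0.12 in the hypothalamus and 0.30 in the midbrain over the 6 tested, with 1 of them called in each region. The part of length in these family differences was not tested.

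**Figure D4:**
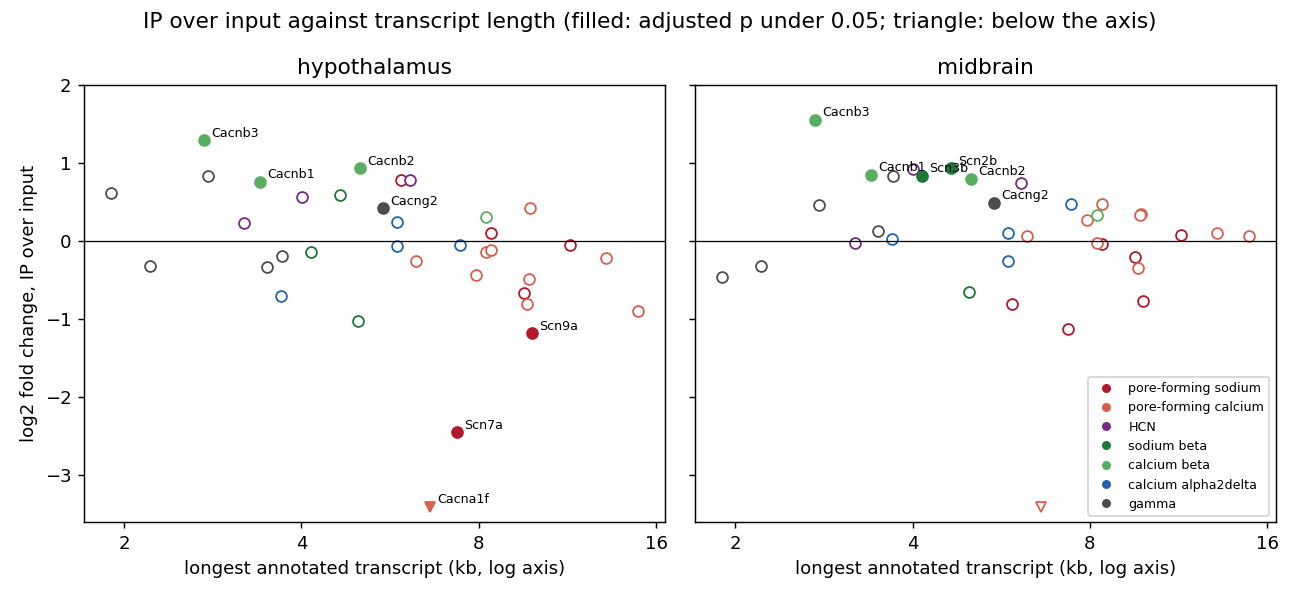
Log2 fold change of IP over input against the longest annotated transcript (kb, log axis) for the 36 channel genes tested, with colours for families, filled symbols for adjusted p under 0.05 and a triangle for Cacna1f, whose value lies below the axis. The genes called higher have transcripts of 2734 to 5510 bases, and the 3 called lower in the hypothalamus have transcripts of 6622 to 9840 bases.

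The difference between the regions' IP over input changes asks whether a channel gene was enriched more in one region than in the other. None of 36 channel genes passed (edgeR), beside 0.0772% of all genes, and 1, Scn3b, had an unadjusted p under 0.05. DESeq2 and limma-voom called 0 channel genes as well. With the replicate block 1 passed, beside 0.579% of all genes: Scn3b, with a difference (hypothalamus minus midbrain) of -0.95 on the log2 scale (adjusted p = 0.0285, against 0.58 without the block). Cacnb1, Cacnb2 and Cacnb3 had differences between -0.26 and 0.13 on the log2 scale with standard errors of 0.21 to 0.24, which does not show that the regions are alike.

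Hypothalamus IP was then set against midbrain IP, to see which channel transcripts on tagged ribosomes differed by region. Of 36 channel genes 0 were higher and 2 lower in hypothalamus IP (edgeR), beside 2.05% and 2.21% of all genes. With the replicate block 1 was higher and 11 were lower, beside 4.41% and 6.75% of all genes. Without the libraries numbered 1 the counts were 0 higher and 8 lower, beside 1.48% and 3.07%. In hypothalamus input against midbrain input 0 were higher and 2 lower (1% and 0.601% of all genes), and with the block 4 were higher and 6 lower (2.87% and 3.18%). Markers of other cells also moved with region. Oligodendrocyte markers were lower in the hypothalamus for 4 of 10 genes between the IPs and 3 of 10 between the inputs, and GABAergic markers were higher for 5 of 13 and lower for 2 between the IPs, and higher for 4 and lower for 2 between the inputs. General neuron markers summed to 15795 to 21992 CPM in hypothalamus IP and 20081 to 27661 CPM in midbrain IP, and to 10376 to 13634 CPM in hypothalamus input and 16340 to 18837 CPM in midbrain input, where the groups did not overlap. Their part in the regional results was not tested. Region and lane cannot be told apart within a number. The comparisons of the regions share no library with each other but share every library with the IP over input comparisons.

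Scn4b was lower in both fractions of the hypothalamus. It measured 6.79, 4.59 and 4.35 CPM in hypothalamus IP against 62.6, 34.1 and 36.8 CPM in midbrain IP. In the inputs it measured 12.9, 4.31 and 14.7 CPM in hypothalamus against 84.1, 64.1 and 61.1 CPM in midbrain. No hypothalamus library came within reach of a midbrain library in either fraction. It was 8.49-fold lower between the IPs (log2 -3.09, SE 0.42, edgeR adjusted p = 0.00147) and 6.57-fold lower between the inputs (log2 -2.72, SE 0.41, adjusted p = 0.00612). Cerebellum markers summed to 36.4 to 71.1 CPM in hypothalamus IP and 43 to 56.3 CPM in midbrain IP, with 1 of 5 tested lower and Gabra6 at 0 in hypothalamus IP. Their part was not tested.

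Cacng2 was lower in hypothalamus IP than in midbrain IP (log2 -0.59, SE 0.13, edgeR adjusted p = 0.0291), by the values given above, which did not overlap. The call was lost in 7 of 21 alternatives, among them leaving out hypothalamus IP replicate 1 (adjusted p = 0.062) or 2 (0.111) and midbrain IP replicate 1 (0.0793) or 3 (0.0967). Between the inputs Cacng2 did not overlap either, but did not pass (log2 -0.52, edgeR adjusted p = 0.0845).

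Hcn2, a slower, cyclic AMP-sensitive HCN form that is prominent in the thalamus, was lower in hypothalamus input. It measured 16.8, 11.6 and 9.97 CPM in hypothalamus IP against 29.3, 21.1 and 23.3 CPM in midbrain IP, and 11.5, 7.27 and 13.9 CPM in hypothalamus input against 23.0, 28.0 and 24.1 CPM in midbrain input. Hypothalamus lay below midbrain in every library of both fractions. The inputs differed 2.30-fold (log2 -1.20, SE 0.27, edgeR adjusted p = 0.047), a call that was kept in 10 of 21 alternatives and lost, among others, without any 1 of hypothalamus IP replicate 2, hypothalamus input replicates 1 and 2 or the 6 midbrain libraries (adjusted p 0.0554 to 0.192). Between the IPs the adjusted p was 0.0713, and 0.0221 with the block (log2 -0.95).

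Scn1a and Scn8a were lower in the hypothalamus in the replicate block. The log2 difference of Scn1a was -1.24 between the IPs (edgeR adjusted p = 0.000143) and -1.26 between the inputs (0.000178). That of Scn8a was -1.10 between the IPs (0.00125) and -0.91 between the inputs (0.00684). For both genes the spread between libraries was wide, with hypothalamus IP at 255, 84.4 and 116 CPM for Scn1a against 445, 281 and 262 CPM in midbrain IP, and over all 12 libraries without the block neither passed (adjusted p of 0.162 to 0.358). Without the libraries numbered 1, and with no block, both passed between the IPs (Scn1a -1.44, adjusted p = 0.00157, and Scn8a -1.30, 0.00349) and between the inputs (-1.26, 0.00608, and -0.88, 0.0292). Scn3a and Scn2a1 were not called in the block, with log2 differences of 0.01 and -0.41 between the IPs and 0.52 and 0.22 between the inputs. The sodium beta gene Scn2b was lower between the IPs in the same fit (log2 -0.69, adjusted p = 0.00451). Of the calcium pores Cacna1a, the P/Q-type pore of fast synapses (log2 -1.08, adjusted p = 0.00409), Cacna1g, a T-type pore of burst firing (-1.09, 0.00564), and Cacna1c, the L-type Cav1.2 pore (-0.68, 0.0161), were lower too. Cacnb4 (log2 -0.62, adjusted p = 0.0176) and Cacng5 (-1.52, 0.00152) were lower as well. Cacng5 measured 28.7, 13.0 and 17.9 CPM in hypothalamus IP against 69.6, 40.1 and 56.8 CPM in midbrain IP, without overlap. Cacnb1 was higher between the IPs (log2 0.48, adjusted p = 0.0244) and between the inputs (0.58, 0.0145). Between the inputs the block also called Scn7a (log2 1.73, adjusted p = 0.0121), Scn9a (1.15, 0.0123) and Scn3b (0.63, 0.00669) higher in the hypothalamus, and Cacnb4 (log2 -0.60, adjusted p = 0.0335) and Cacng2 (-0.52, 0.0155) lower. Scn11a, near the detection limit, measured 1.43, 0.900 and 0.0562 CPM in hypothalamus IP against 0.170, 0 and 0.106 CPM in midbrain IP, which overlapped, and did not pass (adjusted p = 0.242).

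**Figure D5:**
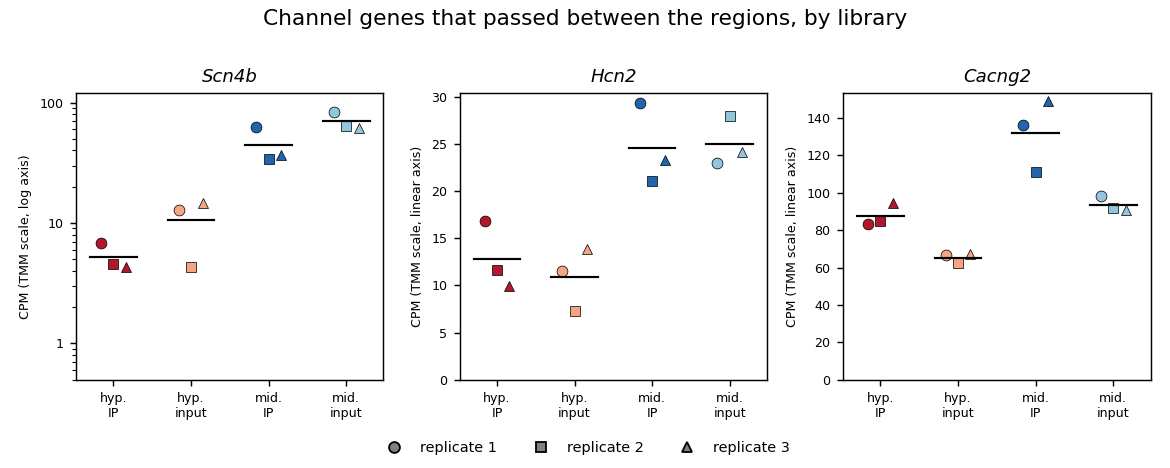
Level of the 3 channel genes that passed between the regions, in each of the 12 libraries in CPM (log axis for Scn4b, linear axis from 0 for Hcn2 and Cacng2), with bars at group means and marker shapes for replicate numbers. Scn4b, Hcn2 and Cacng2 are lower in all hypothalamus libraries than in all midbrain libraries of each fraction.

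A list of 32 partner genes gave context, made of the sodium leak channel complex, cytoplasmic modulators, scaffolds and calmodulins. Of 30 tested, 10 were higher and 5 lower in hypothalamus IP, and 9 higher and 5 lower in midbrain IP, beside the shares of all genes given above. Scn2a1 averaged 200 CPM in hypothalamus IP and 197 CPM in its input, and 245 CPM in midbrain IP and 158 CPM in its input, and did not pass (edgeR adjusted p = 0.983 and 0.361). Without the libraries numbered 1 Scn2a1 was called higher in midbrain IP (log2 0.67, adjusted p = 0.0109), as it was with the replicate block (0.66, 0.00356). Fibroblast growth factor homologous factors bind the tail of sodium pores: Fgf13 was higher in both regions (log2 1.24 and 1.23, adjusted p = 0.00012 and 0.000134), Fgf12 too (0.50 and 0.59, adjusted p = 0.0169 and 0.00701), while Fgf11 was lower in midbrain IP (-0.95, adjusted p = 0.0244). The ankyrins that anchor sodium channels were lower in both regions: Ank2 fell by 1.02 and 1.00, and Ank3 fell by 0.52 and 0.88 on the log2 scale (adjusted p of 0.000567 to 0.011). Nalcn, the leak channel, did not pass in either region, but was called higher in midbrain IP with the replicate block (log2 0.52, adjusted p = 0.0491) and without the libraries numbered 1 (0.55, 0.0371). In its complex Fam155a was higher (log2 1.37 and 1.01, adjusted p = 2.08e-05 and 0.000148) and Unc79 lower (-0.95 and -1.08, adjusted p = 0.000732 and 0.000336). Pex5l, whose product TRIP8b binds HCN channels, was lower in both IPs (log2 -1.75 and -1.18, adjusted p = 0.000828 and 0.00752) and lower in hypothalamus IP than in midbrain IP (-1.65, adjusted p = 0.00763). Rem2, a small GTPase that binds calcium beta subunits, was higher in both IPs (log2 1.13 and 1.82, adjusted p = 0.0169 and 0.00141). Calm2, 1 of 3 genes for calmodulin, the calcium sensor of these channels, was 1.54 and 1.56 higher on the log2 scale (adjusted p = 4.51e-06 and 4.07e-06).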

How the data were processed

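TRAP-seq libraries of 2 regions and 2 fractions, 3 each, were analysed. The authors deposited whole-number read counts by gene symbol, not normalised; the submitters' processing notes name STAR 2.0.0e, HTSeq and mm10, and the annotation, strand setting and counting mode are not given in the sources used here. The 5 summary rows of HTSeq were left out, as was a row without a gene name (unknown). The no-feature row held 7.59 to 17.4% of the counts over all rows. The ambiguous row held 1.37 to 2% in the IPs and 4.03 to 16.2% in the inputs. The row of reads not aligned uniquely held 37.3 to 48.6% in the IPs and 23.7 to 30% in the inputs. Their part in the IP over input results was not tested.

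Counts of 18128 genes kept by filterByExpr were fitted in edgeR 4.0.16 (R 4.3.3) by quasi-likelihood as 4 group means over 12 libraries, scaled by TMM, with Benjamini-Hochberg adjustment over all genes and calls at adjusted p under 0.05. The fit was run on simulated counts with changes of known size, where it missed most of the smaller ones. Far fewer genes were changed there than were called between IP and input, so its miss rate does not carry over to these data. A gene that did not pass may still differ. Exon lengths came from GENCODE mouse release 21, which held all 40 symbols described, and promoters from RefSeq (GRCm38.p6). Depth of 41909019 to 55148109 counts gave a floor of 3 counts per library, which covers counting error only. The symbol rule matched 43 genes, of which 3 are not reported here, although all entered the fit. The members and lists were chosen with earlier results of these data known. Values in every library are given for genes called between IP and input without overlap at 5 CPM or more, for genes called between regions and for the leading gene of each family; others were named after their values were seen.

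Same-numbered libraries deviated together, by the correlation of their deviations from group means. It was 0.155 to 0.324 in the hypothalamus, 0.113 to 0.301 between the IPs and 0.141 to 0.379 between the inputs. Each of these pairs was over the limit of 0.1, so the number pairs them. In the midbrain it was 0.0754 to 0.189. Replicate 2 alone was under 0.1, and by that rule the number was not taken to pair them. Midbrain IP and input libraries of different numbers had values of -0.141 to -0.0252, so block calls are given for the midbrain too. Alternatives were the replicate block, DESeq2 1.42.0, limma-voom (limma 3.58.1), other scalings and filters, fits of only the groups compared, and leaving out each library or all libraries numbered 1.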

Additional observations from a re-analysis of the deposited data

Results flagged for a closer look

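For Scn3b the regional difference in IP over input passed only with a replicate block. With the number as a block it was -0.95 on the log2 scale (hypothalamus minus midbrain, edgeR adjusted p = 0.0285), while the fit without the block gave -0.98 (adjusted p = 0.58) and the fit without the libraries numbered 1 gave -0.78 (0.588). The number was not taken to pair the midbrain libraries.

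Cacng8, an AMPA receptor escort that is most abundant in the forebrain, was higher in IP than in the input of the same number in 3 of 3 hypothalamus pairs and lower in 3 of 3 midbrain pairs, although the midbrain numbers were not taken to pair libraries. It measured 2.68, 3.54 and 3.37 CPM in hypothalamus IP against 2.57, 2.29 and 1.43 CPM in input, and 3.04, 3.05 and 2.18 CPM in midbrain IP against 3.21, 5.16 and 3 CPM in input. The regional difference was 1.07 on the log2 scale (SE 0.52) and did not pass edgeR's test (adjusted p = 0.789), nor with the block (0.522). Cacng8 was flagged by the direction of its pairs itself. The share of all genes with that pattern is not given here, so the pair counts are no test.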

How the results depend on the processing

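Among channel genes higher in hypothalamus IP, 4 calls became 7 with the replicate block by number, 7 with the block by region and number and 7 without the libraries numbered 1, and 3 to 5 when 1 library was left out. The 3 lower calls became 5 in DESeq2, 5 with library size alone, 8 and 9 in those blocks, 9 without number 1, and 1 to 8 when 1 library was left out (8 without hypothalamus IP replicate 1, 1 without IP replicate 2, IP replicate 3 or input replicate 1).

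Midbrain calls higher in IP were 6, and 10 in both blocks, with 4 to 7 when 1 library was left out. The 0 lower calls became 2 in DESeq2, 1 with library size alone, 1 in limma-voom, 1 with only the midbrain fitted, 2 in both blocks, 3 without number 1, and 0 to 1 when 1 library was left out. In the midbrain the block added Cacna2d1, Cacng5, Hcn3 and Hcn4 as higher and Scn7a and Scn9a as lower.

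For the regional difference, 0 calls became 1 in both blocks. Between the IPs, 2 calls became 5 in DESeq2, 4 with library size alone, 4 in limma-voom, 1 with only the IPs fitted, 12 in the block by number, 8 without number 1, and 1 to 7 when 1 library was left out (7 without hypothalamus IP replicate 1, and 1 without hypothalamus IP replicate 2, midbrain IP replicate 1 or midbrain IP replicate 3). Between the inputs, 2 became 4 in DESeq2, 3 with library size alone, 10 in the block, 3 without number 1, and 1 to 3 when 1 library was left out. The block by region and number also called Cacna1a lower in hypothalamus IP. The block by number changed no other call of the 36 channel genes than those given here and in the report, and the cause of these changes was not tested.

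Scaling by library size alone moved the all-gene median (log2) by -0.16 in the hypothalamus and 0.12 between the inputs. The higher share of channel gene calls was then 37.5% in place of 57.1% in the hypothalamus, 83.3% in place of 100% in the midbrain and 33.3% in place of 0% between the inputs. Cacnb1, Cacnb2 and Cacnb3 kept their calls in both regions under 22 of 22 alternatives, Scn2b in the midbrain under 22 of 22, and Scn4b between IPs and between inputs under 21 of 21. No channel gene call of the fit without block reversed its direction under these alternatives. Values that were not called did: the median of the pore-forming genes in the midbrain, 0.06, was -0.06 and -0.04 in the blocks and -0.10 without number 1, where Cacna1b in the midbrain also went to -0.10 against 0.33, and Cacng5 in the hypothalamus to 0.07 against -0.19. At this depth, genes with a handful of counts (Cacna1f, Scn10a, Scn11a) cannot be ranked.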
